A study of Mus musculus with 24 samples.

Results

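The class III and class IV POU genes were followed in mouse embryonic stem cells (ESCs) in which the Polycomb repressive complex PRC1 was removed or made catalytically inactive. They were chosen by name: Pou3f1, Pou3f2, Pou3f3 and Pou3f4 of class III, and Pou4f1, Pou4f2 and Pou4f3 of class IV, each as the deposited transcript of that symbol with the most signal. These 7 genes have 7 of the 20633 transcripts of the table, and 6 of the 7 had at least 10 reads in at least 3 libraries and were tested, among 16940 transcripts tested in all. Pou3f4 reached 10 reads in 1 library and is described without a test.

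POU factors carry a bipartite DNA-binding domain, a POU-specific domain joined to a POU homeodomain, and bind octamer-like sequences. The class III factors Pou3f1 (OCT6), Pou3f2 (BRN2), Pou3f3 (BRN1) and Pou3f4 (BRN4) act in neural progenitors and, together with SOX proteins, at enhancers of neural genes, while the class IV factors Pou4f1 (BRN3A), Pou4f2 (BRN3B) and Pou4f3 (BRN3C) mark sensory neurons, retinal ganglion cells and hair cells. PRC1 contains RING1A or RING1B, which ubiquitylate histone H2A, and together with PRC2 it holds developmental genes with CpG-rich promoters in a repressed state in ESCs.

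Calibrated RNA-seq (cRNA-seq), in which ESCs are mixed with Drosophila SG4 cells so that RNA is scaled to cell number, was made from 12 libraries, 3 biological replicates of each of 4 conditions. PRC1CKO cells (E14 strain, clone B9) have the genotype Ring1a-/-; Ring1bfl/fl with ERT2-Cre at Rosa26, so that they are labelled as lacking RING1A before any treatment, and 4-hydroxytamoxifen (OHT) deletes an exon of Ring1b. PRC1CPM cells (E14 strain, clone 41) carry the catalytic substitutions I50A and D53K in Ring1a throughout, with a floxed Ring1b that OHT switches from wild type to I53A/D56K, and ERT2-Cre at Rosa26. Each line was left untreated (UNT) or given 800 nM OHT for 72 h. Each line is 1 clone, so that clone and genotype cannot be told apart. The libraries held between 14668159 and 27016156 reads within the counted gene bodies, with condition medians of 20998133 and 24004077 for untreated and treated PRC1CKO and of 19062652 and 23164194 for untreated and treated PRC1CPM cells. All values are normalised read counts, that is reads divided by 1 size factor per library from the Drosophila reads, and 1 read was worth between 0.77 and 1.49 of them. The gene of RING1B, Rnf2, had 1760, 1440 and 1390 normalised read counts in untreated and 1490, 1570 and 1590 in OHT-treated PRC1CKO cells. The gene of RING1A, Ring1, had 313, 204 and 166 in untreated and 281, 251 and 229 in OHT-treated PRC1CKO cells, and 179, 182 and 125 in untreated and 161, 111 and 148 in OHT-treated PRC1CPM cells, so that it was read in the line in which it is labelled as deleted, at levels that overlapped PRC1CPM cells before OHT and lay above them after it. These counts run over whole gene bodies, also where a part of the gene is left in place, and check neither deletion.

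The promoters show the sequence in which the genes sit. The set of RefSeq (GRCm38.p6) promoters used here held 5 of the 7 genes. It had no entry for Pou3f1 and Pou4f3, although RefSeq lists transcripts of both. The 250 bases before the start are printed 5′ to 3′ on the gene's strand, the 3 genes that rose after OHT beside a gene of each class that was not called or not tested, with every CpG dinucleotide in capitals. They lie at chr4:22488367-22488616 on the minus strand for Pou3f2, chr1:42695518-42695767 on the plus strand for Pou3f3, chrX:110814129-110814378 on the plus strand for Pou3f4, chr14:104468000-104468249 on the minus strand for Pou4f1 and chr8:78436648-78436897 on the minus strand for Pou4f2.
Pou3f2: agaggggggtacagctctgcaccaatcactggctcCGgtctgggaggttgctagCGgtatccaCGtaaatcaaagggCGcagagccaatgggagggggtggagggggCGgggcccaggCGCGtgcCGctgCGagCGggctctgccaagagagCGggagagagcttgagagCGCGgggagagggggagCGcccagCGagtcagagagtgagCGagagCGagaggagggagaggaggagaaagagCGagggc
Pou3f3: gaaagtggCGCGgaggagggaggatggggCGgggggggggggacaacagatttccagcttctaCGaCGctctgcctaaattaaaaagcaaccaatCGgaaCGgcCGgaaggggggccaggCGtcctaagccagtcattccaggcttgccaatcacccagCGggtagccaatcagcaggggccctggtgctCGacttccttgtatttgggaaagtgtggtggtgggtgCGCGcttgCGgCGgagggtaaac
Pou3f4: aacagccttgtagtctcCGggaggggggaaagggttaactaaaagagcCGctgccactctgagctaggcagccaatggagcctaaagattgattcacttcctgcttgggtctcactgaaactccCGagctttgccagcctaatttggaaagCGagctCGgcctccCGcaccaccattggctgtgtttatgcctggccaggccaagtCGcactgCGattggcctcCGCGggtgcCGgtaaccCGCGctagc
Pou4f1: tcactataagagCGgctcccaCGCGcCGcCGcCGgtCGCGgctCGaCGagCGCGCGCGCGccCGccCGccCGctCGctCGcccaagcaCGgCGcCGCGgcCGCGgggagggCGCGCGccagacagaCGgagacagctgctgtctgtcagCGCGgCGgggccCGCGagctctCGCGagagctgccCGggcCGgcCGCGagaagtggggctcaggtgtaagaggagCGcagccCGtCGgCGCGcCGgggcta
Pou4f2: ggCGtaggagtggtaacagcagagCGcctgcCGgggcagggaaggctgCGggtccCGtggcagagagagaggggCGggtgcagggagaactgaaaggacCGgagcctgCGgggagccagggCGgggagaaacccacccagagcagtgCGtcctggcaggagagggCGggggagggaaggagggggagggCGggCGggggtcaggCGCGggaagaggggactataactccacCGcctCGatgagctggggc

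The Pou4f1 promoter held 47 CpGs in the 250 bases and 78.0% G and C, and 0.25% of the 32841 promoters of the table held as many. Pou3f2 held 18 CpGs, Pou4f2 17, Pou3f3 15 and Pou3f4 13, against a median of 6 over all promoters and an upper quartile of 16. Pou4f2, which was not called in either line, lay between Pou3f2 and Pou3f3, which were, in its number of CpGs. A relation of the number of CpGs to the calls was not tested. The 3 class III promoters held the letters CCAAT or their reverse complement, 2 times in Pou3f2 and 3 times each in Pou3f3 and Pou3f4, and neither class IV promoter did. CCAAT was found in 33.9% of all promoters of this length, and at least 3 times in 2.79%. GGGCGG, the GC box, was found on either strand 5 times in Pou4f2, 2 times in Pou4f1 and 1 time each in Pou3f2 and Pou3f3, and in 32.7% of all promoters. TATAAA, the TATA box, was found on neither strand of the 5 promoters and in 12.4% of all promoters. No motif of the 3 is part of another, and a match is a description of the letters only.

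The class III genes have a single exon in RefSeq, whereas Pou4f1 has 3 and Pou4f2 and Pou4f3 have 2. The deposited gene bodies on mm10 are chr4:124657646-124660655 (plus strand) for Pou3f1, chr4:22482095-22488366 (minus) for Pou3f2, chr1:42697146-42700209 (plus) for Pou3f3, chrX:110814465-110815550 (plus) for Pou3f4, chr14:104462325-104467999 (minus) for Pou4f1 and chr8:78433009-78436652 (minus) for Pou4f2. The interval counted for Pou3f4 covers 23.0% of the bases of its RefSeq exon, the coding part, and that for Pou3f3 covers 69.0%, starting at the coding start. In RefSeq the Pou3f3 body also lies inside Gm46091, a longer gene on the same strand, so that reads of these overlapping genes cannot be told apart.

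After OHT, Pou3f2, Pou3f3 and Pou4f1 rose in both lines, and Pou3f1, Pou4f2 and Pou4f3 passed the test in neither. In these bulk samples, more cells that express a gene and more RNA of it per cell cannot be told apart. In PRC1CKO cells the log2 change was 5.10 for Pou3f2, 3.93 for Pou3f3 and 1.66 for Pou4f1, and in PRC1CPM cells it was 2.86, 2.11 and 0.98. A transcript was called at an adjusted p under 0.05 (limma, Benjamini-Hochberg over all transcripts tested) with a fold change above 1.5. Thus 3 of the 6 tested genes were called higher in PRC1CKO cells, where 16.5% of all tested transcripts were called higher and 3.09% lower, and 3 of 6 in PRC1CPM cells, where the background was 13.1% higher and 1.4% lower. The 3 genes were the same in both lines, and 11.6% of all tested transcripts were called higher in both. Pou3f2 and Pou3f3, with Pou4f3, did not reach 10 reads in 3 of the 6 untreated libraries and passed the filter through the OHT libraries, so that 2 of the 3 called genes were tested because they were high after OHT. Of all tested transcripts 5.51% did not reach 10 reads in 3 untreated libraries, and the counts of called genes are a description. Of the 16007 transcripts that did, 2390 were called higher in PRC1CKO and 1874 in PRC1CPM cells.

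**Figure D1:**
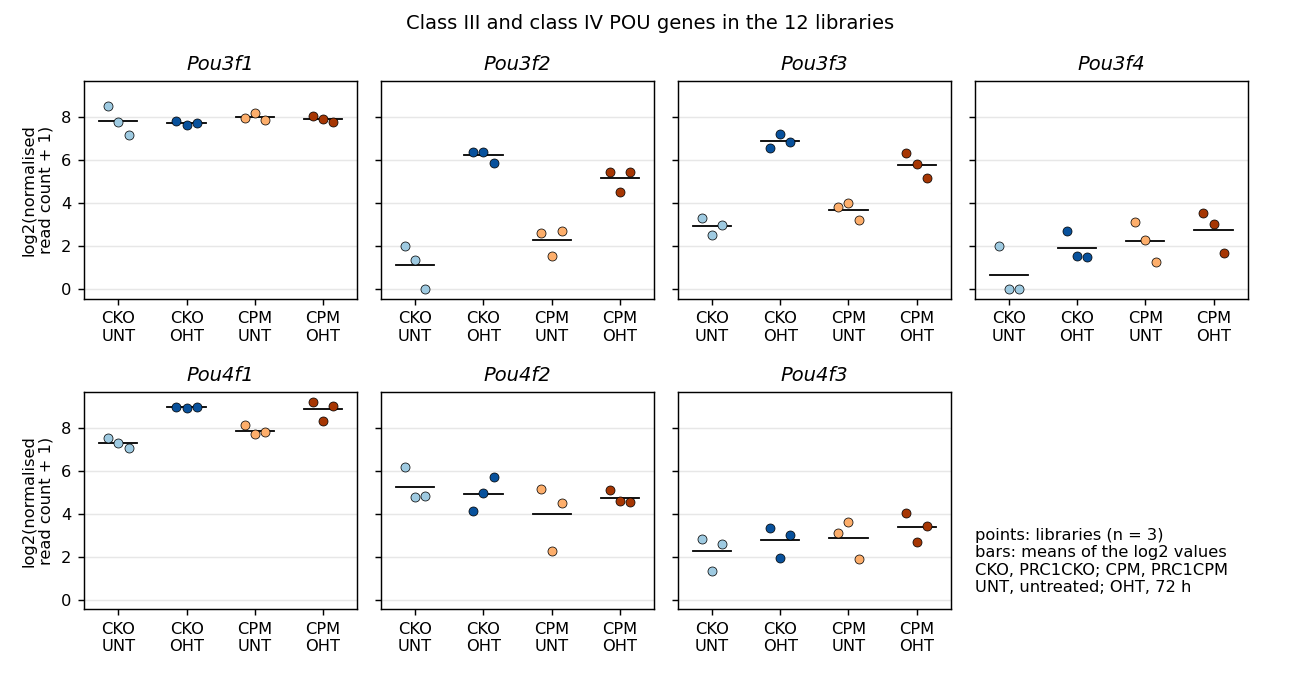
Each panel plots 1 of the 7 POU genes as log2(normalised read count + 1), with a point for each library and a bar for the mean of the 3 replicates in the 4 conditions. Pou3f2, Pou3f3 and Pou4f1 stood higher in every OHT library than in any untreated library of the same line, whereas the treated and untreated libraries of a line overlapped for Pou3f1, Pou4f2 and Pou4f3.

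Pou3f2, whose product BRN2 is one of the factors used to turn fibroblasts into neurons, had the lowest mean per length of gene body of the 7 genes in untreated cells of both lines. In untreated PRC1CKO cells it overlapped Pou3f4, whose mean rests on 2 reads. Pou3f2 had 2.98, 1.54 and 0 normalised read counts in the untreated PRC1CKO libraries and 82.3, 82.4 and 57.6 after OHT. In PRC1CPM cells it had 5.11, 1.88 and 5.42 untreated and 42.5, 21.6 and 42.7 after OHT. The untreated and treated libraries did not overlap in either line, and all OHT-treated PRC1CKO libraries stood above all OHT-treated PRC1CPM libraries. The log2 change was 5.10 ± 0.58 (SE, n = 3 per condition, limma adjusted p = 5.29e-10) in PRC1CKO and 2.86 ± 0.58 (adjusted p = 0.000195) in PRC1CPM cells, on the log2(value + 1) scale. The untreated PRC1CKO value rests on 4 reads in 3 libraries, so that the ratio of pooled reads of 58.2 has a 95% exact counting interval from 15.9 to 490.0, and the ratio of 8.84 in PRC1CPM cells, over 10 untreated reads, one from 3.6 to 28.5. Of all values between 1 and 10 reads, 81.7% were even, so that most fragments were counted as both reads of a pair. The intervals therefore use the fewest fragments that the reads allow, 2 and 5 in untreated cells here, and cover counting error only.

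Pou3f3, the class III gene closest to Pou3f2 in sequence and in its use in cortical progenitors, had 8.94, 4.62 and 6.76 normalised read counts in untreated and 93.1, 144 and 112 in OHT-treated PRC1CKO cells. In PRC1CPM cells the values were 12.8, 15.1 and 8.13 untreated and 78.2, 55.7 and 35.1 after OHT. Treated and untreated libraries did not overlap in either line, and the treated PRC1CPM libraries all lay below the treated PRC1CKO libraries. Its log2 change was 3.93 ± 0.46 (SE, n = 3 per condition, limma adjusted p = 9.76e-10) in PRC1CKO and 2.11 ± 0.46 (adjusted p = 0.000485) in PRC1CPM cells. The ratio of pooled reads was 18.3 (95% exact counting interval 9.77 to 38.9) and 4.6 (2.7 to 8.43).

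Pou4f1, a factor of sensory neurons of the dorsal root and trigeminal ganglia, had well over 100 normalised read counts in every untreated library and the smallest change of the 3 genes that rose. Its normalised read counts were 183, 152 and 132 in untreated and 498, 479 and 499 in OHT-treated PRC1CKO cells. They were 272, 204 and 222 in untreated and 589, 318 and 512 in OHT-treated PRC1CPM cells. The treated libraries stood above the untreated ones in both lines, and replicate 2 of treated PRC1CPM cells, at 318, was the lowest of the 6 treated libraries. The log2 change was 1.66 ± 0.27 (SE, n = 3 per condition, limma adjusted p = 2.74e-06) in PRC1CKO and 0.98 ± 0.27 (adjusted p = 0.00744) in PRC1CPM cells. The call in PRC1CPM cells was lost without replicate 1 of OHT-treated PRC1CPM cells (log2 change 0.80, adjusted p = 0.0713) and without replicate 3 (0.90, adjusted p = 0.0532).

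Over all tested transcripts, 22.1% had every treated PRC1CKO library above every untreated one, and 18.7% in PRC1CPM cells. The median log2 change of all tested transcripts was 0.12 in PRC1CKO and 0.10 in PRC1CPM cells, and with TMM scaling it was -0.0019 and -0.0072. Relative to the first of these medians, the changes of Pou3f2, Pou3f3 and Pou4f1 were 4.98, 3.82 and 1.55 in PRC1CKO cells, and relative to the second 2.76, 2.01 and 0.88 in PRC1CPM cells. Of the called transcripts 84.2% were higher in PRC1CKO and 90.4% in PRC1CPM cells, and with TMM scaling 71.5% and 80.1%. With TMM or median-of-ratios scaling the same count of 3 genes was called higher in each line.

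Pou3f1, the class III gene that ESCs and the early epiblast express, had 359, 219 and 144 normalised read counts in untreated and 223, 197 and 207 in OHT-treated PRC1CKO cells. It had 243, 286 and 228 in untreated and 264, 237 and 215 in OHT-treated PRC1CPM cells. Treated and untreated libraries overlapped in each line, and replicates 1 and 3 of untreated PRC1CKO cells held the highest and the lowest value of the 12. Its log2 change was -0.10 ± 0.29 (SE, n = 3 per condition, limma adjusted p = 0.883) in PRC1CKO and -0.08 ± 0.29 (adjusted p = 0.946) in PRC1CPM cells.

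Pou4f2, needed for retinal ganglion cells, had 71.5, 26.2 and 27.1 normalised read counts in untreated and 16.3, 29.6 and 50.6 in OHT-treated PRC1CKO cells. It had 34.5, 3.77 and 21.7 in untreated and 32.8, 23.2 and 21.9 in OHT-treated PRC1CPM cells. The values of all 4 conditions overlapped, and the 3 replicates of untreated PRC1CPM cells differed more among themselves than the means of the conditions did. The log2 change was -0.34 ± 0.54 (SE, n = 3 per condition, limma adjusted p = 0.771) in PRC1CKO and 0.76 ± 0.54 (adjusted p = 0.478) in PRC1CPM cells. Over 114 untreated and 108 treated reads, the ratio in PRC1CKO cells was 0.896 (95% exact counting interval 0.606 to 1.32).

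Pou4f3, the class IV gene of auditory and vestibular hair cells, lies at chr18:42394597-42396093 on the plus strand (mm10). It had 5.96, 1.54 and 5.07 normalised read counts in untreated and 9.04, 2.78 and 6.98 in OHT-treated PRC1CKO cells, and 7.67, 11.3 and 2.71 in untreated and 15.4, 5.41 and 9.86 in OHT-treated PRC1CPM cells. Treated and untreated libraries overlapped in both lines. Its log2 change was 0.50 ± 0.68 (SE, n = 3 per condition, limma adjusted p = 0.728) in PRC1CKO and 0.51 ± 0.68 (adjusted p = 0.79) in PRC1CPM cells, over 12 to 32 reads per condition.

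Pou3f4, an X-linked gene of the inner ear and hypothalamus, had 2.98, 0 and 0 normalised read counts in untreated and 5.42, 1.85 and 1.74 in OHT-treated PRC1CKO cells. It had 7.67, 3.77 and 1.36 in untreated and 10.6, 6.96 and 2.19 in OHT-treated PRC1CPM cells. With 45 reads in the 12 libraries together, the conditions overlapped in each line. The ratio of pooled reads was 4.73 in PRC1CKO cells, over 2 untreated reads, with a 95% exact counting interval from 0.529 to 224.0, and 1.59 in PRC1CPM cells (0.553 to 5.17). Only the coding part of this gene was counted, and a difference was not detectable at this depth in either line.

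**Figure D2:**
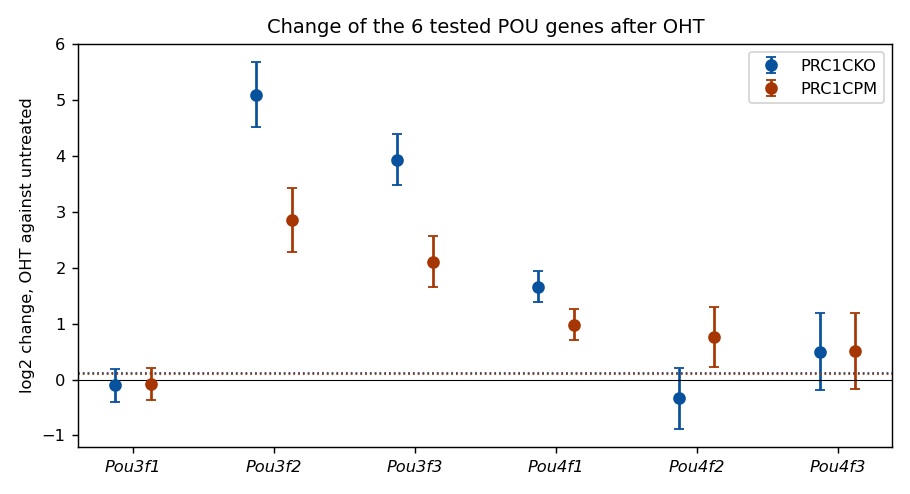
Log2 changes after OHT of the 6 tested POU genes (points, fitted with limma on log2(normalised read count + 1)) with their standard errors (bars, n = 3 libraries per condition) in PRC1CKO and PRC1CPM cells, with a dotted line at the median of all tested transcripts in each line. The changes of Pou3f2, Pou3f3 and Pou4f1 stand well above these medians of 0.12 and 0.10 in both lines, and those of Pou3f1, Pou4f2 and Pou4f3 lie within 2 standard errors of 0.

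Between the lines after OHT, the level of no POU gene of classes III and IV was called different by limma: 0 of 6, where 1.25% of all tested transcripts were called higher in PRC1CPM and 0.218% lower. With TMM scaling 524 transcripts were called higher and 261 lower, against 212 and 37 on the deposited scale. At an unadjusted p under 0.05 there was 1, Pou3f3, and DESeq2 and edgeR each called 0. Pou3f2 averaged 35.6 ± 12.1 (SD, n = 3) normalised read counts in OHT-treated PRC1CPM against 74.1 ± 14.3 in OHT-treated PRC1CKO cells, a log2 difference of -1.08 ± 0.58 (SE, limma adjusted p = 0.51). Pou3f3 averaged 56.3 ± 21.6 against 116 ± 26.0, a log2 difference of -1.08 ± 0.46 (adjusted p = 0.311). The treated libraries of the lines did not overlap for these 2 genes, as was so in this direction for 4.35% of all tested transcripts. Pou4f1 averaged 473 ± 140 against 492 ± 11.5, a log2 difference of -0.10 ± 0.27 (adjusted p = 0.992), and its libraries overlapped. With the replicate number as a block, Pou3f3 was called lower in PRC1CPM cells (log2 difference -1.08, limma adjusted p = 0.0372), and with the block in edgeR both Pou3f3 (-1.08, adjusted p = 0.00377) and Pou3f2 (-1.10, adjusted p = 0.0204), each being lower in 3 of 3 pairs of libraries. The calls of these 2 genes between the treated lines therefore depend on whether the libraries are paired.

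Before treatment, 0 of 6 genes were called different between the lines by limma, where 2.21% of all tested transcripts were called higher in PRC1CPM and 0.478% lower. With TMM scaling 745 transcripts were called higher and 305 lower, against 374 and 81 on the deposited scale. At an unadjusted p under 0.05 there were 2 genes, Pou4f1 and Pou4f2, and DESeq2 and edgeR each called 0. Pou4f1 averaged 233 ± 35.6 (SD, n = 3) normalised read counts in untreated PRC1CPM against 156 ± 25.8 in untreated PRC1CKO cells (log2 difference 0.58 ± 0.27, adjusted p = 0.311), with every PRC1CPM library above every PRC1CKO library, as for 9.23% of all tested transcripts. Pou4f2 averaged 20.0 ± 15.4 against 41.6 ± 25.9 (-1.28 ± 0.54, adjusted p = 0.231). Pou3f2 averaged 4.14 ± 1.96 against 1.51 ± 1.49, over 10 and 4 reads (1.16 ± 0.58, adjusted p = 0.354). Pou4f2 was called lower in untreated PRC1CPM cells when replicate 1 of untreated PRC1CPM cells was left out (-1.87, adjusted p = 0.0342). It was also called lower with the replicate block in limma (-1.28, adjusted p = 0.00984) and in edgeR (-1.10, adjusted p = 0.0469), though not with the block and TMM scaling.

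The difference of the OHT change between the lines, the interaction, was called by limma for 0 of the 6 genes. Over all tested transcripts the interaction was called in 0% towards a larger change in PRC1CPM cells and in 0.0236% (4 transcripts) towards a smaller one. At an unadjusted p under 0.05 there were 2 genes, both in the direction of a smaller rise in PRC1CPM cells: Pou3f2 with an interaction of -2.24 ± 0.82 (SE, log2 scale, adjusted p = 1) and Pou3f3 with -1.83 ± 0.65 (adjusted p = 1). DESeq2 and edgeR each called 0. The interaction of Pou3f2 rests on 4 untreated reads in PRC1CKO and 10 in PRC1CPM cells. It ran from -3.38 to -1.58 over the alternatives other than leaving out a library. For Pou4f1 the interaction was -0.68 ± 0.38 (adjusted p = 1). With the replicate block the interaction of Pou3f3 was called in limma (-1.83, adjusted p = 0.0432) and in edgeR (-1.96, adjusted p = 0.0419), though not with the block and TMM scaling, and that of Pou3f2 was not called with the block. The 3 comparisons share libraries, the untreated and the treated ones of each line.

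Per kilobase of gene body, Pou3f1 and Pou4f1 were the most abundant of the 7 genes in every condition. In untreated PRC1CKO cells Pou3f1 had 79.9 ± 36.3 (SD, n = 3) normalised read counts per kb, Pou4f1 27.5 ± 4.55 and Pou4f2 11.4 ± 7.11, and the libraries of these neighbours in the order did not overlap. Pou4f3 with 2.80 ± 1.56, Pou3f3 with 2.21 ± 0.705, Pou3f4 with 0.914 ± 1.58 and Pou3f2 with 0.240 ± 0.238 normalised read counts per kb followed, each overlapping the next. After OHT in PRC1CKO cells the order changed to Pou4f1 with 86.7 ± 2.03, Pou3f1 with 69.5 ± 4.39, Pou3f3 with 38.0 ± 8.48 and Pou3f2 with 11.8 ± 2.28 normalised read counts per kb, none of which overlapped the next, followed by Pou4f2 with 8.83 ± 4.75, which overlapped Pou3f2.

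In untreated PRC1CPM cells Pou3f1 had 83.8 ± 10.1 (SD, n = 3) and Pou4f1 41.0 ± 6.27 normalised read counts per kb, the other genes had 5.49 or less, and Pou3f2 was again the lowest at 0.660 ± 0.312. After OHT Pou4f1 with 83.3 ± 24.6 and Pou3f1 with 79.4 ± 8.28 normalised read counts per kb overlapped, and Pou3f3 followed with 18.4 ± 7.04. Pou4f2, Pou4f3, Pou3f4 and Pou3f2 lay between 7.13 and 5.68 and overlapped one another. Introns were counted with the gene body of the class IV genes, which lowers a value per kb where they hold few reads.

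**Figure D3:**
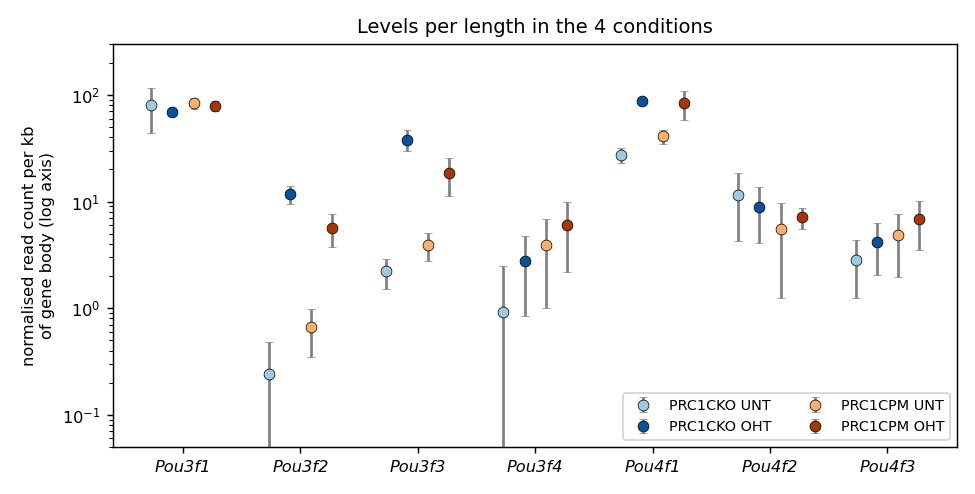
Mean normalised read count per kb of gene body (log axis) of the 7 POU genes in the 4 conditions, with the SD over 3 libraries as bars, where a bar that meets the lower edge goes on to or below 0. In PRC1CKO cells Pou4f1 moves from 27.5 to 86.7, above Pou3f1 at 69.5, and Pou3f3 from 2.21 to 38.0.

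The 3 genes that rose varied together over the 12 libraries. Pearson's r of the log2 values was 0.965 between Pou3f2 and Pou4f1, 0.934 between Pou3f2 and Pou3f3 and 0.911 between Pou3f3 and Pou4f1, as a description, since the 12 points share the 4 conditions. The transcripts closest to each gene, by the root mean square (RMS) difference of log2 values after subtraction of each gene's mean, are named next. For Pou3f2 they were Hoxd4, a Hox gene of the hindbrain and trunk (RMS difference 0.442, r = 0.98), and Tbx20, a T-box factor of the heart (0.467, r = 0.981), over 12 libraries. For Pou3f3 the closest was Fli1, an ETS factor of blood and endothelium (0.339, r = 0.979). For Pou4f1 they were Cidea (0.171, r = 0.974), a lipid droplet protein, and March3 (0.172, r = 0.978), a ubiquitin ligase.

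For the genes that were not called, the closest transcripts were Ctgf (RMS difference 0.13, r = 0.905) and Det1 (0.145, r = 0.881) for Pou3f1, Gm6213 (0.39, r = 0.913) and Nme5 (0.521, r = 0.824) for Pou4f2, and Npas1 (0.332, r = 0.898) and Misp (0.398, r = 0.849) for Pou4f3. For Pou3f4 they were Tns4 (0.351, r = 0.948) and Fam65c (0.387, r = 0.954). With a few reads per library for Pou3f4 and Pou4f3, these likenesses rest on counts that differ by a few reads.

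Pantr1 next to Pou3f3 and Rnf219 next to Pou4f1 rose in both lines, and 2900092D14Rik next to Pou3f3 in PRC1CKO cells. Pantr1, a noncoding RNA transcribed away from Pou3f3 from a start 2.32 kb upstream of the counted interval, averaged 0.513 ± 0.889 (SD, n = 3) normalised read counts in untreated and 32.5 ± 12.5 in OHT-treated PRC1CKO cells (log2 change 4.55 ± 0.68, limma adjusted p = 4.73e-07). In PRC1CPM cells Pantr1 averaged 2.16 ± 1.94 and 23.0 ± 5.97 (3.18 ± 0.68, adjusted p = 0.000424). 2900092D14Rik, 0.13 kb beyond the 3′ end of Pou3f3 on the same strand, averaged 1.56 ± 1.49 and 16.6 ± 5.28 in PRC1CKO cells (2.95 ± 0.75, adjusted p = 0.00218) and 5.22 ± 5.12 and 11.4 ± 5.28 in PRC1CPM cells (1.47 ± 0.75, adjusted p = 0.234). This transcript starts where Pou3f3 ends, and whether its reads are of its own or continue from Pou3f3 was not tested. Pantr1 and 2900092D14Rik, like Pou3f3, were tested through the OHT libraries, as they did not reach 10 reads in 3 untreated ones.

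Rnf219, which encodes a RING finger protein and lies 9.53 kb upstream of Pou4f1 on the same strand, averaged 346 ± 43.5 (SD, n = 3) normalised read counts in untreated and 947 ± 40.3 in OHT-treated PRC1CKO cells (log2 change 1.46 ± 0.24, limma adjusted p = 2.9e-06). In PRC1CPM cells it averaged 419 ± 24.7 and 832 ± 168 (0.97 ± 0.24, adjusted p = 0.00238). The changes of Pou4f1 were 1.66 and 0.98. Fbxl4, 48.0 kb from Pou3f2, had log2 changes of 0.44 ± 0.23 (adjusted p = 0.212) and 0.29 ± 0.23 (adjusted p = 0.565) and was called in neither line. The neighbours of the genes that were not called, Utp11l (18.11 kb) beside Pou3f1, Ttc29 (38.68 kb) and Rbmxl1 (68.62 kb) beside Pou4f2 and Rbm27 (53.06 kb) beside Pou4f3, were not called either, with log2 changes between -0.71 and -0.06. Pou3f4 had no listed gene within 100 kb.

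POU genes of other classes were read beside those of classes III and IV. Pou2f3, a factor of tuft cells and epidermis, averaged 242 untreated and 261 normalised read counts after OHT in PRC1CKO cells (log2 change 0.28 ± 0.36, limma adjusted p = 0.712) and 130 and 285 in PRC1CPM cells (1.13 ± 0.36, adjusted p = 0.0254). Pou5f1 (OCT4), the pluripotency factor, averaged 4730 and 3130 (-0.56 ± 0.23, adjusted p = 0.0778) and 4540 and 3860 (-0.25 ± 0.23, adjusted p = 0.63). Pou2f1 (OCT1), which is made in most cells, averaged 7390 and 5320 (-0.48 ± 0.20, adjusted p = 0.0795) and 7240 and 5430 (-0.42 ± 0.20, adjusted p = 0.168). Pou6f1 had log2 changes of 0.71 and 0.69, Pou5f2 of 1.23 and 0.03 and Pou2f2 of -0.03 and 0.22 in PRC1CKO and PRC1CPM cells, none of them called. These calls depend on the scaling and the test: in PRC1CKO cells Pou5f1 and Pou2f1 were called lower with TMM or median-of-ratios scaling, Pou5f1 also with edgeR, and Pou6f1 was called higher with TMM scaling, while Pou2f3 in PRC1CPM cells was not called with DESeq2. Pou1f1, the pituitary factor, had no reads in any of the 12 libraries.

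Genes that work with the class III factors or are regulated by them moved both ways. Of 21 tested, 8 were called higher and 2 lower in PRC1CKO cells and 6 higher and 1 lower in PRC1CPM cells, with median log2 changes of 0.79 and 0.56. Of the 21, 5 did not reach 10 reads in 3 untreated libraries, Zic1 among them. Zic1, a zinc finger factor of the neural plate, averaged 5.13 untreated and 230 normalised read counts after OHT in PRC1CKO cells (log2 change 5.35 ± 0.47, limma adjusted p = 3.81e-13) and 5.90 and 122 in PRC1CPM cells (4.29 ± 0.47, adjusted p = 7.05e-10). Foxp2 and Sox3, factors of neurons and of neural progenitors, rose by 2.59 and 2.57 in PRC1CKO and by 1.85 and 2.01 in PRC1CPM cells on the log2 scale. Pax6 rose by 3.06 and 1.28, Sox10 by 1.59 and 1.72 and Mbp, the myelin basic protein gene, by 1.25 and 0.95. Dll1, a Notch ligand of neural progenitors, fell by 1.17 in PRC1CKO and by 1.43 in PRC1CPM cells on the log2 scale, from 828 to 357 and from 1290 to 444 normalised read counts.

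Many genes upstream, beside or downstream of the class IV factors were called higher. Of 24 tested, 21 were called higher and 0 lower in PRC1CKO cells, and 16 higher and 0 lower in PRC1CPM cells, with median log2 changes of 2.08 and 1.34. Of the 24, 12 did not reach 10 reads in 3 untreated libraries and were tested through the OHT libraries. This leaves 12 genes, of which 10 were called higher in PRC1CKO and 9 in PRC1CPM cells. The same counts over all transcripts that reached 10 reads in 3 untreated libraries were 2390 and 1874 of 16007. Over all 24, none had an unadjusted p under 0.05 in the lower direction. DESeq2 called 20 and 15 of the 24 higher and 0 lower, and edgeR 20 and 16 higher and 0 lower. The genes tested through the OHT libraries could hardly be called lower. The counts and medians over all 24 are therefore a description only. Hmx1, a homeobox factor of sensory ganglia, averaged 6.93 untreated and 162 normalised read counts after OHT in PRC1CKO cells (log2 change 4.98 ± 0.54, limma adjusted p = 1.47e-10) and 19.4 and 149 in PRC1CPM cells (2.92 ± 0.54, adjusted p = 5.06e-05). The LIM homeobox partners Isl1 and Isl2 rose by 3.05 and 4.70 in PRC1CKO and by 1.47 and 1.98 in PRC1CPM cells on the log2 scale. The neurotrophin receptor genes Ntrk2 and Ntrk3 rose by 1.34 and 2.82 in PRC1CKO and by 1.09 and 2.41 in PRC1CPM cells.

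Of the class IV list, Runx1 and Runx3, which sort sensory neurons into types, rose by 1.43 and 1.73 in PRC1CKO and by 1.02 and 1.32 in PRC1CPM cells on the log2 scale. The proneural gene Neurog2 and the hair cell gene Atoh1 rose by 2.66 and 2.65, and by 2.53 and 2.82, from means under 5 normalised read counts untreated. Gfi1, a zinc finger factor of hair cells and blood, rose by 2.70 and 3.67, Barhl2 by 3.05 and 2.60, Irx6 by 1.91 and 3.17, Onecut1 by 1.70 and 1.17, Onecut2 by 2.44 and 1.51 and Eomes by 1.57 and 1.31. The list holds many developmental regulators, and 16 of its genes were called higher in both lines. Of these 16, 7 were tested through the OHT libraries.

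**Figure D4:**
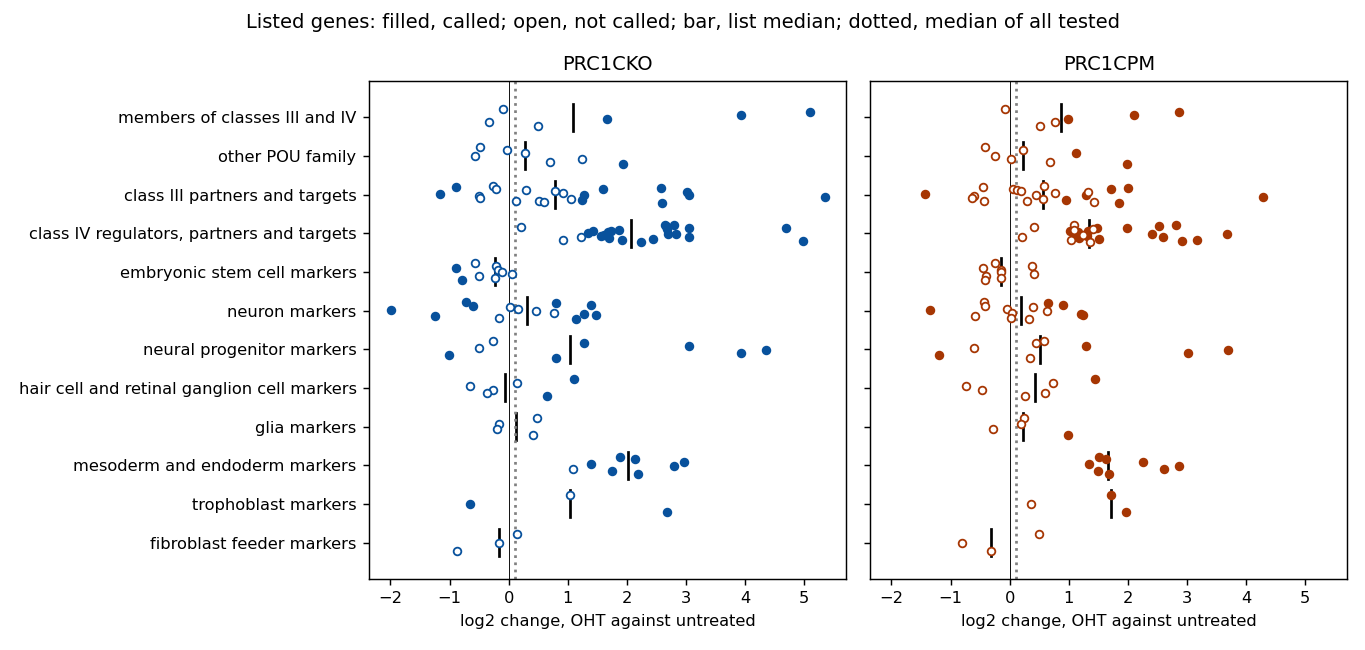
Log2 change after OHT of every tested gene of each list in PRC1CKO (left) and PRC1CPM cells (right), as filled points where called and open points where not, with a bar at the list's median and a dotted line at the median of all tested transcripts. The class IV regulators, partners and targets and the mesoderm and endoderm markers lie mostly to the right, whereas neuron markers lie on both sides of 0.

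Markers of differentiated neurons rose and fell. Of 14 tested, 5 were called higher and 4 lower in PRC1CKO cells and 4 higher and 1 lower in PRC1CPM cells, with median log2 changes of 0.31 and 0.19. Map2, Rbfox3, Nefm and Nefh, which encode a microtubule protein, a splicing factor and neurofilament proteins, rose by 0.79, 1.39, 1.28 and 1.48 in PRC1CKO and by 0.66, 0.90, 1.21 and 1.25 in PRC1CPM cells on the log2 scale. Snap25, which encodes a protein of synaptic vesicle fusion, fell by 1.99 and by 1.35. The sum of the list was 14900, 9570 and 9860 normalised read counts in untreated and 11700, 9310 and 11800 in OHT-treated PRC1CKO cells, and 12500, 9890 and 9940 untreated and 14100, 8780 and 11300 after OHT in PRC1CPM cells. The treated and untreated sums overlapped in both lines, Stmn2 being the most abundant gene. The part of these genes in the rise of Pou3f2, Pou3f3 and Pou4f1 was not tested.

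Of 8 tested neural progenitor markers, 5 were called higher and 1 lower in PRC1CKO and 3 higher and 1 lower in PRC1CPM cells. Olig2, read almost only after OHT, and Hes5 did not reach 10 reads in 3 untreated libraries, which leaves 6 genes, of which 4 were called higher in PRC1CKO and 2 in PRC1CPM cells. Olig2 and Lhx2, factors of the ventral neural tube and of the forebrain, rose by 4.35 and 3.92 in PRC1CKO and by 3.69 and 3.02 in PRC1CPM cells on the log2 scale, beside Pax6, and Otx2 fell by 1.01 and 1.20. Pax6 and 4 further genes stand in this list and in that of class III. The sum of these markers was 3310, 2080 and 1780 normalised read counts in untreated and 4360, 3760 and 3800 in treated PRC1CKO cells, and 3520, 3310 and 3140 untreated and 5190, 3540 and 3430 treated in PRC1CPM cells, with Prom1 the most abundant. Their part in the rise of the POU genes was not tested either. Of 6 tested markers of hair cells and retinal ganglion cells, where class IV factors act, 2 were called higher in PRC1CKO and 1 in PRC1CPM cells, and Myo7a rose in both (1.11 and 1.45).

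Markers of other germ layers rose as well. Of 8 tested mesoderm and endoderm markers, 7 were called higher in PRC1CKO and 8 in PRC1CPM cells, with median log2 changes of 2.01 and 1.66. Foxa2 was tested through the OHT libraries, which leaves 7 genes, of which 6 were called higher in PRC1CKO and 7 in PRC1CPM cells. Gata6, Foxa2, Kdr, Gata4, T, Pdgfra and Sox17 rose by 2.96, 2.80, 2.19, 2.14, 1.88, 1.74 and 1.39 in PRC1CKO cells and by 2.26, 2.87, 1.69, 1.63, 1.51, 1.49 and 1.35 in PRC1CPM cells on the log2 scale. Of 3 tested trophoblast markers, 1 was called higher and 1 lower in PRC1CKO and 2 higher in PRC1CPM cells, Hand1 in both (2.68 and 1.97). In PRC1CPM cells DESeq2 called 0 of these markers and edgeR 1. Of 4 tested glia markers, 0 were called in PRC1CKO cells (0 at an unadjusted p under 0.05, and 0 by DESeq2 and by edgeR), and 1, Cspg4 (0.99), was called higher in PRC1CPM cells.

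The ESC markers were read at high levels in all 4 conditions. Of 9 tested, 2 were called lower in PRC1CKO cells, Sox2 (from 7150 to 3830 normalised read counts, log2 change -0.89) and Utf1 (from 1750 to 1000, -0.79), and with edgeR, TMM or median-of-ratios scaling 3 were. In PRC1CPM cells 0 of 9 were called by limma, by DESeq2 or by edgeR, with 1 at an unadjusted p under 0.05. The sum of the ESC markers was 88700, 56900 and 63600 in untreated and 53100, 50600 and 58500 in treated PRC1CKO cells, and 74200, 51400 and 65900 and then 68900, 39000 and 67200 in PRC1CPM cells. Of 3 tested fibroblast markers, 0 were called after OHT in either line by limma or DESeq2, with 0 and 1 at an unadjusted p under 0.05, and edgeR called 1 lower in each. Their sum, mostly Col1a1, was 13500 in replicate 1 of each PRC1CPM condition and between 2930 and 5170 in the others of that line. The Pou3f2 and Pou3f3 calls in PRC1CPM cells held without either of these libraries, and that of Pou4f1 was lost without the treated one (log2 change 0.80, limma adjusted p = 0.0713).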

How the data were processed

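Gene expression was measured by calibrated RNA-seq in 12 libraries. The authors aligned reads to the mouse (mm10) and Drosophila (dm6) genomes, kept unique reads without duplicates, counted them over gene bodies of a non-redundant refGene set and divided them by size factors from the Drosophila reads, corrected with sequenced genomic DNA. The deposited signal is this normalised read count per transcript. Dividing it by the value of 1 read gave whole reads for 100% of values (tolerance 0.02), and 0 columns of per-sample values were left unmapped. Low counts were mostly even, so that both reads of a pair were largely counted, the filter of 10 reads can be met by 5 fragments, and the count tests of edgeR and DESeq2 were run on reads that are not independent. The deposited table also holds the authors' log2 fold changes and adjusted p-values of their own comparisons, which were not used, nor was their list of genes. Genomic DNA libraries were not analysed here. Whether reads were counted by strand is not given in the sources used here.

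Values were fitted as log2(normalised read count + 1) with limma 3.58.1 (R 4.3.3) over the 12 libraries with 4 condition means and a trend of variance on level. The 16940 transcripts that reached 10 reads in 3 or more libraries were tested, and p-values were adjusted over all of them (Benjamini-Hochberg). A call needed an adjusted p under 0.05 and a fold above 1.5, and for the interaction the adjusted p alone. Fold changes on this scale understate the change of low genes. The count tests of edgeR 4.0.16 (quasi-likelihood) and DESeq2 1.42.0 were run on the recovered reads as alternatives, with the size factors kept. Other alternatives were TMM or median-of-ratios scaling, no filter, pseudocounts of 0.1 and 4, no trend, 1 transcript per symbol, 1 line alone, stricter thresholds, a replicate block and leaving out each library. The fits were run on simulated independent counts without a replicate effect. No changed gene there began at the low untreated levels of Pou3f2 and Pou3f3, so the simulation does not cover such genes. The labels give the groups the same replicate numbers without saying what a number shares. Deviations of same-numbered libraries from their condition means correlated over transcripts with r from 0.140 to 0.225 between the treated lines, 0.186 to 0.377 between the untreated lines and 0.246 to 0.438 within PRC1CPM, and from 0.0988 to 0.179 within PRC1CKO cells, against 0.0275 at most for different numbers. The pairing comes from these data and not from the design, and blocked values are given beside the results whose call they change.

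By the rule for named genes, all 7 POU genes were named, POU genes of other classes, the list genes called in both lines (where a list had none, up to 4 called in either), the nearest gene within 100 kb on each side, and the 2 transcripts with the smallest root mean square difference. The most abundant gene of a list and Pou1f1 were named after their values were seen. The members and lists were chosen with earlier results of these data known. Promoters and annotation came from RefSeq GRCm38.p6, the same assembly as mm10. Some results that this rule names are not reported here.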

Additional observations from a re-analysis of the deposited data

How the results depend on the processing

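The calls of Pou3f2, Pou3f3 and Pou4f1 in PRC1CKO cells and of Pou3f2 and Pou3f3 in PRC1CPM cells kept their direction and their side of the threshold under every alternative run and without any 1 library. The log2 change of Pou3f2 in PRC1CKO cells ran from 3.85 to 6.52 over the alternatives other than leaving out a library, the widest range of these calls, and its untreated value rests on 4 reads. The call of Pou4f1 in PRC1CPM cells was lost with a fold above 2 (log2 change 0.98), and leaving out a library gave 2 to 3 POU genes called in that line.

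Transcripts called between the OHT-treated lines numbered 249, and 429 with DESeq2, 785 with TMM, 774 with median-of-ratios scaling, 73 without the filter and 114 at an adjusted p under 0.01. Between the untreated lines they numbered 455, and 1050 with TMM, 1046 with median-of-ratios scaling, 132 without the filter and 186 at an adjusted p under 0.01. For the interaction they numbered 4, and 15 with DESeq2, 14 with TMM, 13 with median-of-ratios scaling, 1 with a pseudocount of 0.1, 0 without a mean-variance trend (limma) and 1 at an adjusted p under 0.01. The causes were not tested. Leaving out 1 library gave 116 to 477 between the treated lines, 244 to 1570 between the untreated lines and 1 to 28 for the interaction, and 0 to 1 POU genes between the untreated lines.

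With the replicate number as a block (replicate block), 1363 transcripts were called between the treated lines, 1884 between the untreated lines and 324 for the interaction, with edgeR 1477, 1746 and 342, and with TMM 1151, 1470 and 254. Under the replicate block 1 POU gene was called between the treated lines, 1 between the untreated lines and 1 for the interaction, with the block and edgeR 2, 1 and 1, and with the block and TMM 1 between the treated lines (Pou3f3, -1.18, limma adjusted p = 0.0253), 0 between the untreated lines and 0 for the interaction, and the genes are named beside the results. The block changed no call of a POU gene within a line.

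The interaction of Pou4f3, 0.012, changed sign to -0.179 with DESeq2, -0.24 with edgeR, -0.007 with TMM, -0.009 with median-of-ratios scaling, -0.027 with a pseudocount of 0.1, -0.291 with the replicate block and edgeR and -0.007 with the replicate block and TMM. Without 1 library, the log2 change of Pou3f1 ran from -0.422 to 0.235 in PRC1CKO and from -0.153 to 0.017 in PRC1CPM cells, and that of Pou4f2 from -0.728 to 0.125 and from -0.096 to 1.353. Between the treated lines Pou4f1 ran from -0.286 to 0.158 and Pou4f2 from -0.581 to 0.208, between the untreated lines Pou3f1 from -0.157 to 0.5, and the interaction of Pou3f1 from -0.312 to 0.345 and of Pou4f3 from -0.48 to 0.464. None of these was called. Depth limits Pou3f4 and Pou4f3, with 45 and 85 reads in all 12 libraries.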
